A study of Mus musculus with 6 samples.

Results

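RNA of NLRP3KO and WT CD4 T cells was compared within each of 3 stages, and genes were sought whose genotype difference had the same direction at every stage. All 6 libraries of the series entered, as 3 pairs: naive cells, T helper type 2 (Th2) cells at day 3 and Th2 cells at day 6. Of 23700 gene entries in each deposited table, 23415 had the status OK and 1733 had a mean of at least 5 over the 6 libraries in scaled FPKM (fragments normalized to transcript length and library total, brought to a common level by a median ratio). A gene was counted as consistent where NLRP3KO and WT differed by at least 1.5-fold in the same direction in each of the 3 pairs, on the scale of log2(scaled FPKM + 1). That rule took 6 entries higher in NLRP3KO (0.346% of the 1733) and 73 lower (4.21%). The mean that chose the 1733 takes in both genotypes, so a gene can enter because NLRP3KO or WT is high.

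Each group was 1 library, from mice of strain C57/Bl6j aged 7 weeks, either wild-type or NLRP3-/-. Naive cells from spleen and nodes were the start of all 3 stages. Th2 cells were grown for 3 or 6 days on a coating of CD3 and CD28 antibodies, with 10 ng/ml of IL-4 and with IFNgamma blocked by an antibody. The labels describe the 2 naive libraries as purified mRNA and the 4 Th2 libraries as depleted of ribosomal RNA, so preparation and stage cannot be told apart, and only differences within a stage are used. The labels do not say whether the NLRP3-/- mice were littermates of the controls, nor how many mice gave each library. A p-value over the 3 pairs measures the spread between stages, since no genotype was repeated within a stage.

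NLRP3 is a cytosolic sensor that assembles with the adaptor ASC and caspase-1 into an inflammasome, which matures IL-1beta and IL-18 in myeloid cells, and a function within Th2 cells as a transcriptional regulator has also been described. In CD4 T cells, IL-4 acts through JAK1, JAK3 and STAT6, and IL-2 through JAK1, JAK3 and STAT5. SOCS proteins are induced by these STATs and by STAT3 and damp the same receptors, while Myc drives ribosome production in activated cells.

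The pairs differed in depth, as estimated from the deposited confidence bounds. The naive libraries held 1902845 (WT) and 1610816 (NLRP3KO) fragments on genes, while day 3 had 29724 (WT) and 25657 (NLRP3KO) and day 6 had 30726 (WT) and 5877 (NLRP3KO). NLRP3KO day 6 listed 683 of the 1733 genes at 0, against 157 in WT day 6. For Nlrp3 itself (mm9 chromosome 11, 59356188 to 59380458), naive WT alone was above 0, at an FPKM of 0.0569 where 3 fragments give 0.149, so the targeted gene could not be checked. Xist, the X-inactivation RNA, had FPKM of 27.1, 37.8, 13.7 and 17.6 in the naive and day 3 libraries and was listed at 0 in both day 6 libraries, where 3 fragments give 0.361 in WT and 1.46 in NLRP3KO. Those libraries alone had Y-linked genes above 0 (Ddx3y, Kdm5d and Uty in WT, Eif2s3y in NLRP3KO). The presence of Xist thus matched within each pair and differed between stages. The 7 T cell markers found in the tables summed to between 35.5 and 66.6 FPKM in the Th2 libraries and to 1303 and 1726 in naive WT and NLRP3KO. Among naive cells, the 7 B cell markers summed to 81.6 in WT and 40.1 in NLRP3KO, the 5 NK markers to 44.8 and 26.8, and the 5 erythroid entries to 181 and 457. In the Th2 libraries these 3 lists summed to at most 2.87, the erythroid entries to 0. The part of these cells in the naive differences was not tested, and in such bulk RNA fewer cells of a type and less RNA per cell cannot be told apart.

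No gene passed an adjusted p of 0.05 over the 3 pairs (0 of 1733, 0.0%) in limma's two-sided moderated test with weights for depth and Benjamini-Hochberg adjustment, where the smallest adjusted p was 0.94. At an unadjusted p under 0.05, 6 genes were higher in NLRP3KO (0.346%) and 31 lower (1.79%). Asking only for the same sign in each pair gave 155 genes higher (8.94%) and 350 lower (20.2%). The median difference over all tested genes was -0.09 in naive cells, 0.0 at day 3 and -0.69 at day 6 (log2, NLRP3KO minus WT). Pair by pair, 2.48% of tested genes stood at least 1.5-fold above WT and 20.4% below it in naive cells, 27.6% and 32.1% at day 3, and 21.2% and 51.5% at day 6. The split of consistent genes depended on the scaling and was 6 higher and 73 lower as reported, 48 and 32 with FPKM as deposited, 26 and 41 with a scaling within each pair over genes at a mean FPKM of at least 20, and 13 and 48 with a scaling by fragments on genes. Each of the other 3 scalings raises NLRP3KO against WT in every pair, so a gene higher in all pairs keeps that sign by construction. Of the 73 lower entries, 22 were consistent under all 4 scalings. Over the naive and day 3 pairs alone, 14 genes were higher by that fold and 109 lower.

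The 6 higher genes were Socs3, Pim3, Map2k2, Myo1g, Cdc20 and Scd2. In each, the NLRP3KO library lay above the WT library of its stage, and none passed the adjusted threshold. All but Scd2 lay under the minimum mean of 5 in the WT libraries alone, and so entered the tested genes through their NLRP3KO values. Socs3 and Pim3 act in cytokine signalling, and the 250 bases upstream of their start sites are shown because the motifs bound by STAT proteins and by NF-Y could be looked for there. The sequences are those of RefSeq on GRCm38.p6, at chr11:117969367-117969616 (minus strand) for Socs3 and chr15:88861944-88862193 (plus strand) for Pim3, with capitals marking TTCNNNGAA in Socs3 and CCAAT, here on the other strand as ATTGG, in Pim3.
Socs3: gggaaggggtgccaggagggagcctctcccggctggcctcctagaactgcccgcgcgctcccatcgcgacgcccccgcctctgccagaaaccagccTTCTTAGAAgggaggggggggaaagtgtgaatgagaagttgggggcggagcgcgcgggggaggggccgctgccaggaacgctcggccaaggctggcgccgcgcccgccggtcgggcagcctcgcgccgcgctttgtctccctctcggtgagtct
Pim3: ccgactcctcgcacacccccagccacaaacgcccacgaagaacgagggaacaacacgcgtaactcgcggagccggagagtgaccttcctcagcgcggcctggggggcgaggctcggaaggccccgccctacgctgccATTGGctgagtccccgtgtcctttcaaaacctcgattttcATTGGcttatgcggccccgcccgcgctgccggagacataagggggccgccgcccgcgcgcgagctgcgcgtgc
Promoters were matched for 5 of the 6 genes, all but Scd2. On both strands, TTCNNNGAA occurred in 1 of the 5 (Socs3) and in 7.02% of 32851 promoter windows, and CCAAT in 2 of the 5 (Pim3 and Cdc20) and in 33.8%. CACGTG, the E-box read by Myc, occurred in 0 of the 5 and in 6.02% of windows, and ACGTG, the core read by hypoxia-inducible factors, in 0 of the 5 and in 16.6%, the shorter motif lying within the longer. These matches describe letters in the windows.

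Socs3 (chromosome 11, 117827401 to 117830680 on mm9) encodes a feedback inhibitor of JAK signalling downstream of the IL-6 family receptors. Its FPKM was 13.05 in WT and 32.2 in NLRP3KO naive cells, 3.21 and 13.1 at day 3, and 0.688 and 5.98 at day 6. NLRP3KO was higher in 3 of 3 pairs, with log2 differences of 0.75, 1.70 and 2.25 and a weighted mean of 1.29 (SE 0.51, limma's unadjusted p = 0.044, adjusted p = 0.94). Few fragments stood behind the last pair, about 1.2 in WT and 2.6 in NLRP3KO, for a counting SD of 1.15 on its log2 difference.

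Pim3 encodes a serine/threonine kinase of the PIM family, which STAT signalling induces. Its FPKM was 2.44 in WT and 7.89 in NLRP3KO naive cells, 2.91 and 7.40 at day 3, and 2.34 and 6.79 at day 6. The NLRP3KO library was the higher one in each pair, with log2 differences of 0.70, 1.04 and 1.19 after scaling. The day 6 values of Pim3 rest on about 3.9 fragments in WT and 2.8 in NLRP3KO, for a counting SD of 1.03. Map2k2 encodes MEK2, the kinase that phosphorylates ERK. It had FPKM of 11.5 and 28.9 in WT and NLRP3KO naive cells, 2.23 and 7.56 at day 3, and 1.59 and 3.46 at day 6. The day 6 difference of 0.76 was smaller than its counting SD of 1.33. Limma's unadjusted p was 0.12 for Pim3 and 0.11 for Map2k2.

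Myo1g, a class I myosin of haematopoietic cells that tethers membrane to actin, had FPKM of 24.3 in WT and 51.0 in NLRP3KO naive cells, 1.05 and 2.66 at day 3, and 2.25 and 4.88 at day 6. The Th2 values rest on about 3.0 to 5.9 fragments each. Cdc20 activates the anaphase-promoting complex in mitosis. It was listed at 0 in WT naive cells and had an FPKM of 3.995 in NLRP3KO naive cells, 3.03 and 6.42 at day 3, and 1.08 and 18.8 at day 6. The largest value, in NLRP3KO day 6, came from about 3.8 fragments, and no fold is given against the naive WT library. Cdc20 was the only one of 17 proliferation genes tested with the same sign upward, while Pcna, Mcm7 and Stmn1 were lower in all 3 pairs and none of the 3 stayed so with FPKM as deposited.

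Scd2 (chromosome 19, 44368166 to 44381352 on mm9) encodes a stearoyl-CoA desaturase, which makes monounsaturated fatty acids, and was the higher gene with the most Th2 fragments behind it. Its FPKM was 8.67 (bounds 7.42 to 9.91) in WT and 19.7 (17.4 to 22) in NLRP3KO naive cells. At day 3 it was 24.3 (18.7 to 30.0) and 57.1 (47.6 to 66.6), and at day 6 it was 21.4 (16.1 to 26.8) and 50.9 (34.9 to 68.3). The bounds of the 2 genotypes did not overlap at any stage. Log2 differences were 0.60, 1.03 and 1.06, with counting SDs of 0.09, 0.19 and 0.31, and the weighted mean was 0.89 (SE 0.32, limma's unadjusted p = 0.033, adjusted p = 0.94). Of the 8 genes tested from the cholesterol and fatty acid synthesis list, Scd2 was the only one with the same sign in all 3 pairs. Fasn, fatty acid synthase, had log2 differences of 0.15, -0.63 and -0.73, and Srebf1, a transcription factor for lipid synthesis genes, had 0.79, -0.05 and 1.97.

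**Figure D1:**
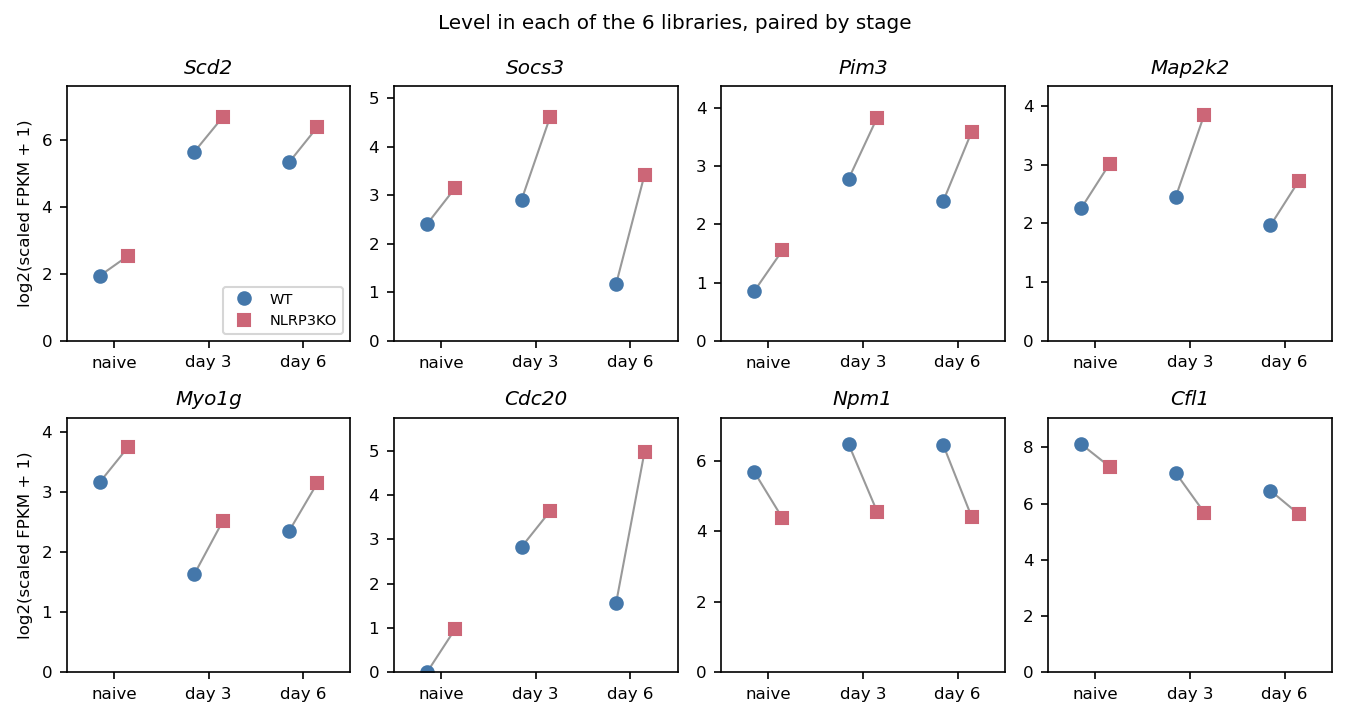
Levels of the 6 consistently higher genes and of Npm1 and Cfl1 in each library, as log2(scaled FPKM + 1) (vertical axis) by stage (horizontal axis). Circles are WT and squares NLRP3KO, 1 library each, joined within a stage, with no error bar because no group was repeated. The square lies above the circle in all 3 pairs for the first 6 genes and below it for Npm1 and Cfl1.

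The nearest genes outside the threshold were H1f0 and Jak3, with smallest differences of 0.57 and 0.56, and the nearest inside were Myo1g and Scd2, with 0.59 and 0.60. Genes named from here on that were under 1.5-fold apart in a pair fall outside the rule for named genes and were chosen after their values were seen. The same holds for Pcna, Mcm7, Stmn1, Fasn and Srebf1 above. Jak3, the kinase bound to the common gamma chain, had FPKM of 13.97 and 31.3 in WT and NLRP3KO naive cells, 3.28 and 11.3 at day 3, and 7.72 and 13.1 at day 6. Of 17 tested genes of IL-2 and IL-4 receptor signalling, 5 were higher in NLRP3KO in all 3 pairs (Il2rb, Jak3, Socs1, Socs3 and Stat5a), 0 were lower, and 0 passed the adjusted threshold in either direction. Beside them, 8.94% of all tested genes were higher and 20.2% lower in all 3 pairs. Socs3 was among the genes that entered through their NLRP3KO values. The list's median weighted difference was 0.29, against -0.27 over all tested genes. Il2rb, the IL-2 receptor beta chain, had FPKM of 17.0 and 35.1 in naive cells, 12.98 and 26.4 at day 3, and 11.8 and 18.2 at day 6, each time higher in NLRP3KO.

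To describe genes that the shallow library could measure, 318 genes were taken for which at least 3 fragments were expected in each NLRP3KO Th2 library at the mean level of the stage. That mean takes in the NLRP3KO value itself, so a gene can enter because NLRP3KO is high. Zyx entered with a day 6 FPKM of 1.55 in WT and 13.5 in NLRP3KO. Of these, 1 was consistently higher (Scd2, 0.314%) and 9 lower (2.83%). Across the 318 genes, the day 3 and day 6 differences correlated with a Pearson r of 0.43 (Spearman 0.44), against 0.12 (0.10) for naive with day 3 and 0.13 (0.16) for naive with day 6. Over all 1733 tested genes, r was 0.07 (0.14) for day 3 with day 6. For naive with day 3 it was -0.06 (0.02), and for naive with day 6 it was 0.12 (0.14). The higher value for the 2 Th2 pairs was thus seen in the 318 genes and not over all tested genes. These are descriptions across genes, which are not independent, within pairs that share no library.

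Among those of the 318 genes with the same sign upward in each pair, the highest weighted means were those of Ecm1 and Sema4f. This rank is a description only, since the same Th2 values entered the choice of the 318. Ecm1, a secreted matrix protein that Th2 cells make, had FPKM of 9.90 and 15.7 in WT and NLRP3KO naive cells, 6.62 and 58.8 at day 3, and 8.09 and 57.3 at day 6. The scaled difference was 0.19 in naive cells against 2.88 and 2.57 in Th2 cells. Sema4f, a membrane semaphorin, had FPKM of 2.64 and 6.45 in naive cells, 2.01 and 13.5 at day 3, and 1.36 and 17.8 at day 6. Both genes were high in the 2 NLRP3KO Th2 libraries and less than 1.5-fold apart in naive cells on the scale of log2(scaled FPKM + 1). Igfbp4, which binds insulin-like growth factors, had FPKM of 96.1 and 183 in naive cells, 12.1 and 27.4 at day 3, and 7.39 and 44.2 at day 6.

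**Figure D2:**
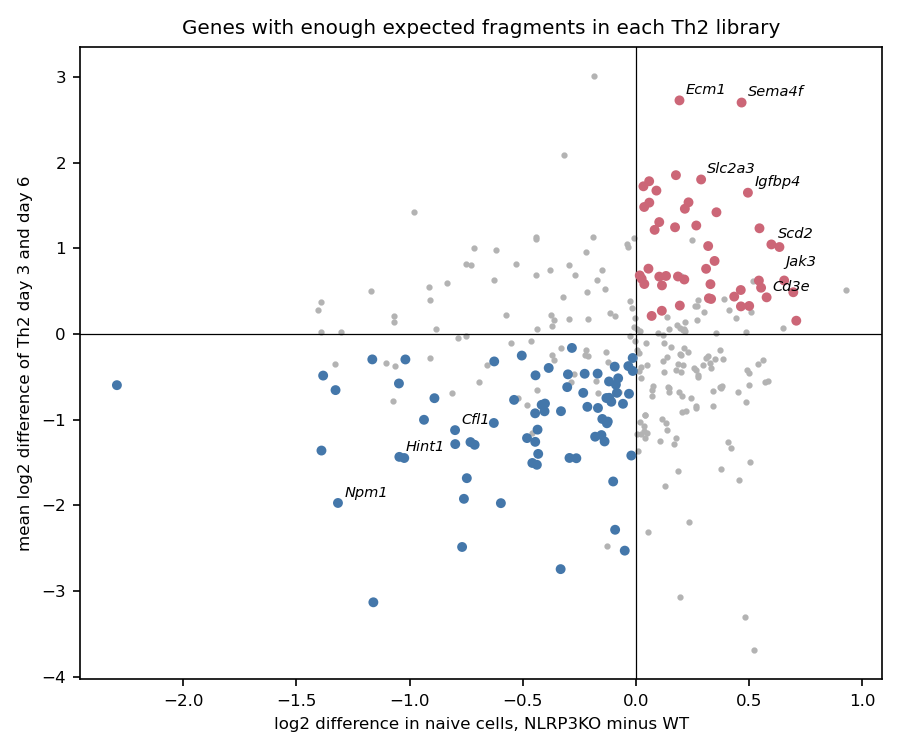
Difference between NLRP3KO and WT in naive cells (horizontal axis, log2) against the mean of the day 3 and day 6 differences (vertical axis, log2) for the 318 genes with at least 3 expected fragments in each NLRP3KO Th2 library. Each point is a gene; large points had the same sign in all 3 pairs, and small grey points did not. Ecm1 stands near 0 on the horizontal axis, at 0.19.

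Of 15 tested targets of hypoxia-inducible factors, 7 were higher in NLRP3KO in all 3 pairs (Bhlhe40, Egln3, Ero1l, Hif1a, Ndrg1, Slc2a1 and Slc2a3), beside 8.94% of all tested genes, and 1 was lower (Ldha), with 0 past the adjusted threshold. The list's medians were 0.10 in naive cells, 1.51 at day 3 and 0.73 at day 6. Slc2a3, the glucose transporter GLUT3, had FPKM of 6.94 and 12.2 in WT and NLRP3KO naive cells, 5.64 and 35.3 at day 3, and 6.52 and 18.2 at day 6. Hif1a, the oxygen-regulated subunit itself, had 8.30 and 11.5 in naive cells, 4.66 and 16.4 at day 3, and 4.62 and 15.04 at day 6. The naive difference after scaling was 0.04, less than its counting SD of 0.10. Ndrg1, a hypoxia-induced stress gene, had 2.58 and 5.57 in naive cells, 1.21 and 13.03 at day 3, and 1.29 and 8.43 at day 6. In the WT libraries alone Ndrg1 lay under the minimum mean for testing, so it entered through its NLRP3KO values. Ldha, lactate dehydrogenase A, was lower in all 3 pairs under 2 of the 4 scalings.

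Of 17 tested genes of the Th2 list, 5 were higher in all pairs (Crlf2, Ecm1, Penk, Socs1 and Socs3), 1 was lower (Gata3) and 0 passed the adjusted threshold. Of all tested genes, 8.94% were higher and 20.2% lower in all pairs. Among the 8 genes of the Th2 list with at least 3 expected fragments, 1 was higher and 1 lower in all pairs. Gata3, the master regulator of the Th2 fate, had log2 differences of -0.13, -0.29 and -1.20, the last on about 2.6 fragments in NLRP3KO, and was lower in every pair under 3 of the 4 scalings. Penk, the precursor of enkephalins, was listed at 0 in both WT Th2 libraries and had FPKM of 11.6 and 12.2 in the NLRP3KO Th2 libraries, about 9.9 and 3.0 fragments. In naive cells Penk stood at 1.06 in WT and 2.35 in NLRP3KO. Penk and Socs3 thus entered the tested genes through their NLRP3KO values, and the count of 5 higher genes takes them in. Of 22 inflammasome genes, 3 were tested, and 1 of them, Txnip, a thioredoxin-binding protein, was higher in all 3 pairs.

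**Figure D3:**
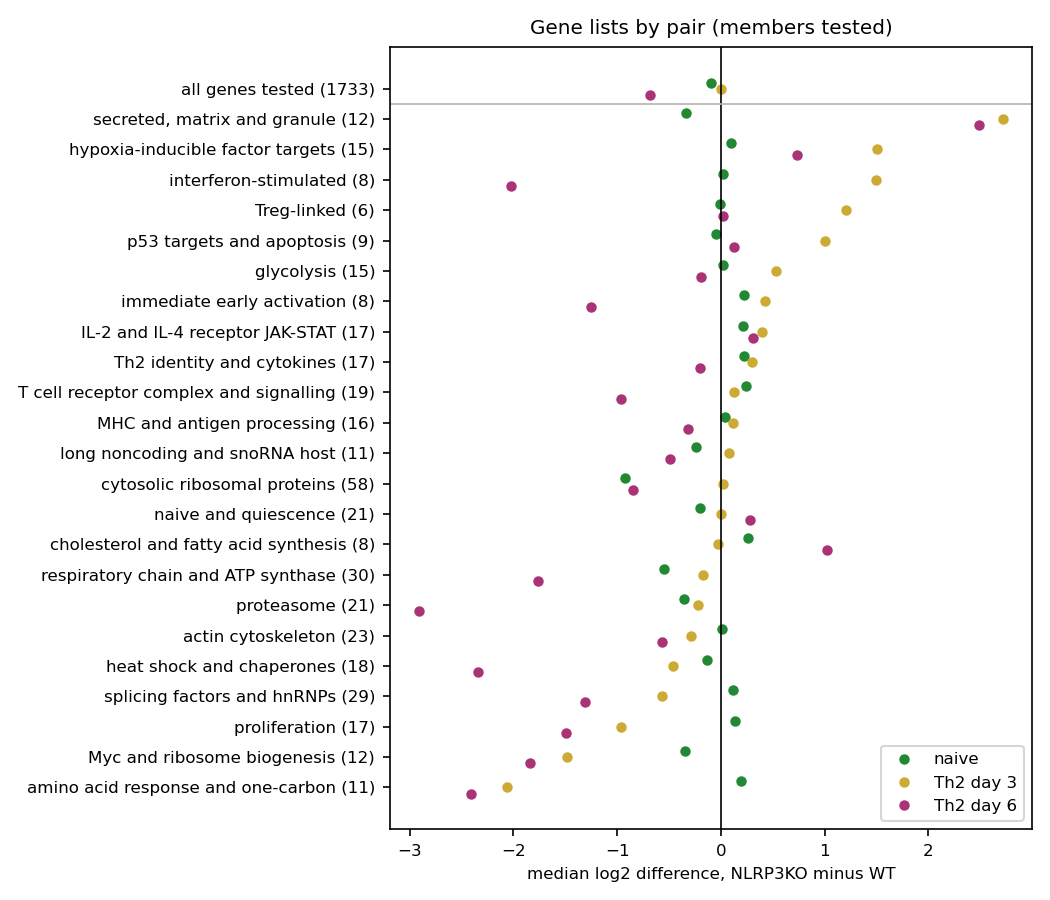
Median difference between NLRP3KO and WT (horizontal axis, log2) of each gene list with at least 6 members tested (vertical axis, number tested in brackets), with 1 point per pair. All tested genes stand at the top, at -0.09 in naive cells, 0.0 at day 3 and -0.69 at day 6.

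Of the 73 lower entries, 53 were named genes, 13 replication-dependent histone genes, 2 small RNAs and 5 unnamed models. Npm1 (chromosome 11, 33052498 to 33063206 on mm9), a nucleolar chaperone of ribosome assembly, had the smallest p of all tested genes. Its FPKM was 155 in WT and 80.8 in NLRP3KO naive cells, 43.5 and 12.7 at day 3, and 47.2 and 12.5 at day 6. NLRP3KO was lower in 3 of 3 pairs, by log2 differences of -1.32, -1.90 and -2.04, with a weighted mean of -1.67 (SE 0.36, limma's unadjusted p = 0.0038, adjusted p = 0.94). The NLRP3KO Th2 values came from about 6.8 and 1.9 fragments, against 29.4 in each WT Th2 library. Among named lower genes consistent under all 4 scalings, Npm1 was the only one above 0 in all 6 libraries.

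Npm1 belonged to the Myc and ribosome biogenesis list, of which 8 of 12 tested genes were lower in all 3 pairs, 0 were higher and 0 passed the adjusted threshold. Of all tested genes, 20.2% were lower in all 3 pairs. With FPKM as deposited, 4 of the 12 were lower, beside 159 of all 1733 tested genes. At least 3 expected fragments in each NLRP3KO Th2 library were reached by 4 of the 12, and 3 of those were lower in all 3 pairs. Ncl, nucleolin, had FPKM of 40.6 and 49.5 in WT and NLRP3KO naive cells, 11.2 and 4.41 at day 3, and 8.11 and 5.70 at day 6. The naive value was thus higher in NLRP3KO as deposited and lower after scaling, by -0.12. Nop56, a box C/D small nucleolar ribonucleoprotein, had 48.3 and 45.7 in naive cells, 8.52 and 1.20 at day 3, and 7.09 and 0 at day 6.

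Cfl1, cofilin, which severs actin filaments, had FPKM of 841 and 646 in WT and NLRP3KO naive cells, 67.0 and 28.4 at day 3, and 47.7 and 29.7 at day 6. The log2 differences were -0.80, -1.40 and -0.84, lower in 3 of 3 pairs (weighted mean -1.01, SE 0.35, limma's unadjusted p = 0.028, adjusted p = 0.94). Of 23 actin cytoskeleton genes tested, 4 were lower in all 3 pairs, a share near the 20.2% of all tested genes, and 1, Lcp1, was higher. That balance depended on the scaling. It was 2 higher and 3 lower for FPKM as deposited, 3 and 2 with scaling within each pair, and 3 and 3 with scaling by fragments. Over all 1733 tested genes, those scalings gave 293 higher and 159 lower, 269 and 226, and 227 and 260. Within 5 Mb of Nlrp3, 17 genes were tested, 5 of them lower in all pairs and 0 higher. Over all tested genes, 20.2% were lower in all pairs, 8.94% were higher and 4.21% were consistently lower. Among the 17, Hint1, a nucleotide hydrolase, was the only consistent gene. Its FPKM was 94.6 and 59.3 in naive cells, 19.3 and 4.88 at day 3, and 57.1 and 36.0 at day 6. Cfl1 and Hint1 were each lower in all pairs under 3 of the 4 scalings. Few fragments stood behind Hint1 in the NLRP3KO Th2 libraries, about 1.3 (day 3) and 2.9 (day 6).

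The 12 lowest named genes were Uqcrh, Rpl35, Cox6c, Mrpl52, Bola2, Lsm3, Cox17, Hmgb1, Mrpl54, Pfdn5, Lsmd1 and Nedd8, all of them listed at 0 in NLRP3KO day 6. Uqcrh, a subunit of respiratory complex III, had FPKM of 349 and 199 in WT and NLRP3KO naive cells, 12.4 and 0 at day 3, and 21.9 and 0 at day 6. Rpl35, a protein of the large ribosomal subunit, had 811 and 301 in naive cells, 32.5 and 6.86 at day 3, and 45.6 and 0 at day 6. Hmgb1, a chromatin protein and alarmin, was lower in 3 of 3 pairs and rested on about 10.2 fragments in WT day 3 and 14.2 in WT day 6, against 0.74 and 0 in NLRP3KO. For genes at 0 the fitted difference depends on the pseudocount, and no fold is given.

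Zeros made up much of the lower set. Of its 73 entries, 53 were listed at 0 in NLRP3KO day 6 and 29 in NLRP3KO day 3. At the WT day 6 level, the 53 would have given a median of 0.979 fragments in NLRP3KO day 6 (range 0.128 to 5.44), and 3 of them at least 3 (Hist1h4f, Hmgb1 and Hsp90aa1). At day 3 the 29 would have given a median of 3.08 fragments (0.452 to 15.3), and 15 of them at least 3, among them Uqcrh, Mrpl52, Lsm3 and Nedd8. For the other genes of the 53, a difference at day 6 was not detectable at this depth.

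**Figure D4:**
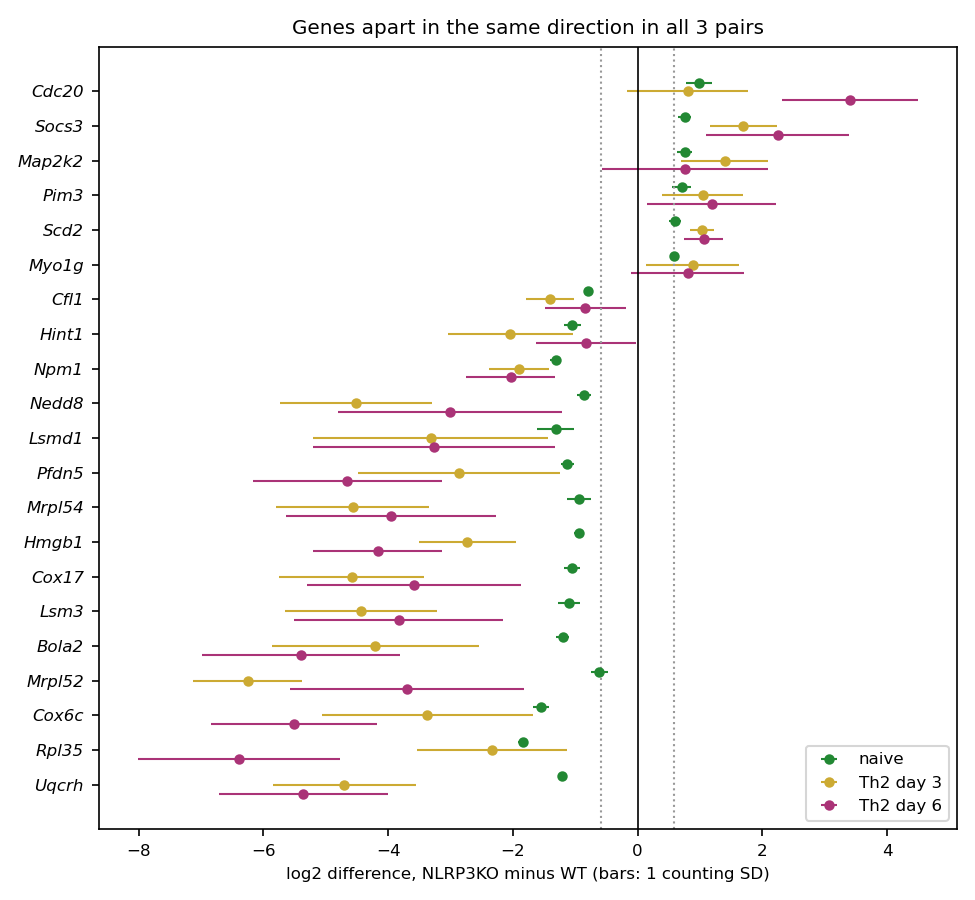
Log2 difference between NLRP3KO and WT (horizontal axis) in each pair for the 6 higher genes, the 12 lowest named genes and Npm1, Cfl1 and Hint1 (vertical axis). Points are pairs of single libraries, bars are 1 counting SD, and dotted lines mark 1.5-fold. Naive bars are short, and those of day 6 are the longest for most of the lower genes.

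Lists of housekeeping function are given beside the 20.2% of all tested genes that were lower in all 3 pairs. Of all 1733, 159 were lower with FPKM as deposited, 226 with scaling within each pair and 260 with scaling by fragments. Of 58 cytosolic ribosomal protein genes tested, 19 were lower in all 3 pairs and 0 higher, with medians of -0.92 in naive cells, 0.02 at day 3 and -0.85 at day 6. Under those other 3 scalings 8, 8 and 13 were lower, in that order, and 0 higher. The 8 with scaling within each pair were near the share of all tested genes. Their values are uncertain, since many have near-identical pseudogene copies. Of 30 respiratory chain and ATP synthase genes, 6 were lower, about the share over all tested genes. Of 21 proteasome genes 11 were lower, with 0 higher in either list, where the other scalings gave 1 higher respiratory gene and 2 or 3 higher proteasome genes. All 11 lower proteasome genes were listed at 0 in NLRP3KO day 6. Of 18 chaperone genes, 10 were lower and 1 (Calr, calreticulin) higher, and 2 were lower with FPKM as deposited. Hsp90ab1, a constitutive HSP90, had FPKM of 213 and 265 in WT and NLRP3KO naive cells, 113 and 71.0 at day 3, and 99.4 and 18.0 at day 6.

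Replication-dependent histone genes, which S-phase cells transcribe and most of which end without a poly(A) tail, were singled out after their values were seen. Of 57 tested, 39 were lower in NLRP3KO in all 3 pairs and 0 higher, and between 28 and 33 were lower under the other 3 scalings, with at most 1 higher. Of all tested genes, 20.2% were lower in all 3 pairs, and between 159 and 260 of the 1733 under the other 3 scalings. Only 23 of the 57 had at least 3 expected fragments in each NLRP3KO Th2 library. None of the 57 passed the adjusted threshold. Their median differences were -0.42 in naive cells, -1.51 at day 3 and -1.53 at day 6. Hist1h4a had FPKM of 8.68 and 1.91 in WT and NLRP3KO naive cells, 110 and 43.6 at day 3, and 160 and 77.0 at day 6. The copies are nearly identical, so reads may be split among them, and the 57 are not independent genes.

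Transcript length moved with the difference in naive cells and at day 6, and showed no order at day 3. Among the 1551 named tested genes with a length, the short group of 3 equal groups (median 1219 bases) had median differences of -0.38 in naive cells, 0.0 at day 3 and -0.999 at day 6. The middle group (median 2562 bases) had 0.01, -0.14 and -0.70, and the long group (median 4461 bases) had 0.07, 0.10 and -0.33. At day 3, among the genes with at least 3 expected fragments, the medians were -0.05 in the short group, 0.02 in the middle group and -0.13 in the long group. Consistently lower genes numbered 30 of 517 in the short group (5.8%), 13 in the middle group (2.51%) and 10 in the long group (1.93%). The 53 named lower genes had a median length of 1499 bases, against 2562 over all tested named genes. The part of length in the lower genes was not tested.

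**Figure D5:**
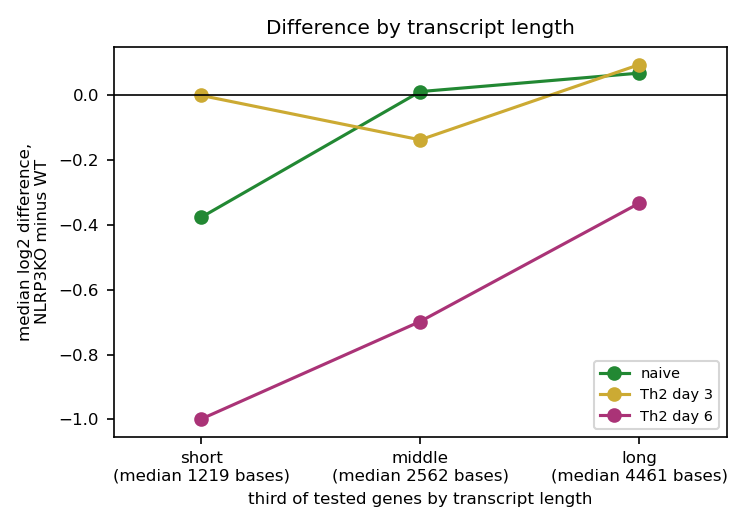
Median difference between NLRP3KO and WT (vertical axis, log2) in each pair by group of transcript length (horizontal axis), 517 genes each. In naive cells and at day 6 the short group lies lowest, at -0.38 and -0.999, and at day 3 the middle group does, at -0.14.

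Whether the genotype difference itself differed between naive and Th2 cells was tested with an added term for the naive pair. In limma 5 of 1733 entries (0.289%) passed an adjusted p of 0.05, all of them small RNAs of at most 121 bases that were listed at 0 in the 4 Th2 libraries. At an unadjusted p under 0.05 there were 105 entries (6.06%). Ecm1, with 0.19 in naive cells against 2.88 and 2.57 in Th2 cells, did not pass this test, with a difference between them of -2.55 and limma's adjusted p = 0.77.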

How the data were processed

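RNA sequencing measured 6 libraries, 1 per genotype and stage. The authors deposited 1 table per library, which gives each gene a status, an FPKM and both confidence bounds in FPKM, per the file headers. TopHat, Cufflinks and mm9 are named in the submitters' processing notes, while versions and annotation were not given in the sources used here. Coordinates of genes are those of the deposited tables. Entries without the status OK (285) were left out.

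FPKM were divided by a median ratio per library, taken against geometric means of the 1059 genes at 1 or more in all libraries. Genes with a mean scaled FPKM of at least 5 were tested on log2(scaled FPKM + 1), with a pseudocount of 1, which understates differences of low genes. Printed FPKM are as deposited, and differences are after scaling. Limma 3.58.1 (R 4.3.3) was fitted to the 3 differences within stages, with stage as the block, a mean-level trend and weights of 1 over the sum of the counting variance and a variance of 0.25 for each of the 2 libraries. The pairing comes from the stage named in the labels. The median weights were 59.2% for naive cells, 25.7% for day 3 and 15.3% for day 6, and the median counting SDs were 0.108, 0.834 and 1.253. The fit was tested on simulated data.

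What 1 fragment is worth was estimated from the bounds, taken as 2 counting SDs, and library totals between 137209 and 4979693 fragments followed. Fragment numbers are therefore estimates, and limits from them cover counting error only, since PCR copies were not marked. Genes at exactly 0 are called listed at 0, since Cufflinks can write 0 where it fails.

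Members and gene lists were chosen with earlier results of these data known. Named genes are Nlrp3, up to 12 consistent genes in each direction (without small RNAs, receptor segments, histone and haemoglobin genes and unnamed models), up to 4 consistent members of each list, markers, and up to 5 consistent genes in each direction within 5 Mb of Nlrp3. Others are said to be chosen after their values were seen. Transcript lengths were matched by symbol to GENCODE on GRCm38, and promoter windows are from RefSeq. Tried alternatives were other pseudocounts, minimum levels, scalings, weights, leaving out a pair, and no block.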

Additional observations from a re-analysis of the deposited data

Results flagged for a closer look

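The genotype difference differed between naive and Th2 cells for 5 small RNAs in limma's test of the added naive term. The naive difference minus the Th2 difference was -8.84 (log2) for LOC100302567, -7.88 for Mir135a-2, -6.39 for Mir1931, -5.19 for Snora28 and 6.09 for Snora65, with adjusted p between 0.0062 and 0.035. Each was listed at 0 in the 4 Th2 libraries and in 1 naive library. Their Th2 differences are therefore exactly 0, with no spread between day 3 and day 6. In naive WT the first 4 stood at FPKM of 1389, 715, 252 and 109, and in naive NLRP3KO Snora65 stood at 274. Their gene spans were 94 to 121 bases, shorter than the library fragments of about 300 bp given in the labels. With a pseudocount of 5, with FPKM as deposited or with scaling within each pair, 0 entries passed.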

How the results depend on the processing

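The paired limma fit called 0 genes at an adjusted p of 0.05 in each of the 15 alternatives run, with smallest adjusted p values between 0.0908 (without the day 3 pair) and 1.0 (without the day 6 pair). With no replicate block, that is with stage ignored, it called 0 genes as well (smallest adjusted p 0.998). Consistent genes numbered 6 higher and 73 lower. They were 0 higher and 26 lower with a pseudocount of 5, 12 and 116 with a minimum of 1 or with no filter, and 1 and 28 with a minimum of 20. With FPKM as deposited they were 48 and 32, with scaling within each pair 26 and 41, and with scaling by fragments on genes, added after seeing the data, 13 and 48. With at least 3 expected fragments, also added after seeing the data, they were 1 and 9. They were 0 and 14 at 2-fold, and 155 and 350 with the same sign alone. A rule over fewer pairs takes at least as many genes: leaving out a pair gave between 14 (day 6 left out) and 153 (naive left out) higher, and between 109 (day 6) and 347 (naive) lower. The 5 calls of the naive against Th2 test became 0 with a pseudocount of 5, with FPKM as deposited and with scaling within each pair. The scaling by fragments moved the median of all tested genes at day 6 from -0.69 to -0.20 (a shift of 0.49). Single genes could change direction with the scaling. Srrm2 and Ppp4c were each higher in all 3 pairs under 1 scaling and lower in all 3 under 1 other. Upper-quartile scaling was not run, because the quartile of NLRP3KO day 6 is 0. Depth limits the day 6 pair most, where 1 fragment on the median tested gene gives an FPKM of 4.22 in NLRP3KO and 1.05 in WT.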

Other observations

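Genes of the T cell surface and its proximal signalling had differences of either sign between NLRP3KO and WT, several of them smaller in Th2 cells than their counting SD. None passed limma's adjusted threshold, and those named here were chosen after their values were seen. Laptm5, a lysosomal protein that lowers receptor levels, had FPKM of 154 and 303 in WT and NLRP3KO naive cells, 16.2 and 26.2 at day 3, and 18.1 and 30.8 at day 6, with log2 differences of 0.55, 0.50 and 0.58. Cd3e, a chain of the T cell receptor complex, had differences of 0.58, 0.34 and 0.52. Zap70, the kinase recruited to that complex, had 0.32, 0.49 and 0.34. Counting SDs at day 3 and day 6 were larger than these differences, at 0.63 and 0.84 for Cd3e and 0.58 and 0.78 for Zap70. Cd3g, another chain of that complex, was lower in each pair, with differences of -0.49, -0.54 and -3.97, the last with NLRP3KO listed at 0. The day 3 difference of Cd3g was smaller than its counting SD of 0.82. Of the 19 tested genes of receptor complex and signalling, 2 were higher in all 3 pairs (Cd3e and Zap70) and 3 were lower (Cd3d, Cd3g and Lat). The shares over all tested genes were 8.94% higher and 20.2% lower. The balance of the 19 turned under the other scalings. It was 3 higher and 1 lower for FPKM as deposited and with scaling within each pair, and 2 and 1 with scaling by fragments. All 1733 tested genes moved the same way, with 293 higher and 159 lower, 269 and 226, and 227 and 260 under those scalings. Il21r, the IL-21 receptor, had FPKM of 30.0 and 60.4 in naive cells, 5.38 and 17.1 at day 3, and 5.05 and 12.5 at day 6. Neat1, a nuclear long noncoding RNA, had 43.5 and 75.7 in naive cells, 5.46 and 13.2 at day 3, and 4.10 and 17.8 at day 6.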
